A study of Mus musculus with 6 samples.

Results

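Regulators of G protein signaling (RGS proteins) and receptors for vasoactive ligands were followed as 10 genes: Rgs2, Rgs4, Rgs5 and Rgs16, the endothelin receptors Ednra and Ednrb, the prostacyclin receptor Ptgir, the vasopressin receptor Avpr1a, the ATP-gated channel P2rx1 and the odorant receptor Olfr558. They were chosen by gene symbol, and each of the 10 matched 1 of the 31055 features of the deposited matrix. The matrix counts transcripts, each read once through its molecular tag (UMI), per gene and cell from the proximal thoracic aorta, from the root to the arch, of 6 female mice aged 16 weeks on a 129SVE background. By their labels, 2 mice were Tgfbr1M318R/+, a model of Loeys-Dietz syndrome (LDS) with a heterozygous missense change in a TGF-β receptor. The 4 controls were 2 Tgfbr1+/+ mice and 2 Tgfbr1+/+; Wnt2CRE; EGFP-L10a mice, in which Cre under the Wnt2 promoter switched on a tracer in cells of the cardiac neural crest (CNC) lineage. Live nucleated cells were sorted by flow cytometry with DNA dyes, without a gate for a cell type.

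No source used here pairs the 6 libraries, which are told apart by the barcode suffix, with the 6 mice or with the days on which cells were prepared. LDS and control mice were therefore not compared, no p-values were computed, and each value is printed for every library or by the lowest, median and highest of the 6. Filters on genes, UMIs and mitochondrial share kept 24972 of 30716 barcodes, with 18218282 to 38105145 UMIs per library and a median of 5572 to 9838 UMIs per cell. Among the cells kept, 1590 (6.37%) shared their barcode sequence with a barcode of another library. Clusters with the markers of vascular smooth muscle cells (VSMCs), fibroblasts, endothelial cells and leukocytes held 10380, 13477, 567 and 548 cells, and are called VSMC-like, fibroblast-like, endothelial-like and leukocyte-like. The defining VSMC markers, Myh11 and Acta2 among them, summed to a median of 65761 UMIs per 1000000 (CPM) in VSMC-like cells and to medians of at most 3018 CPM in the other classes. Only 10 endothelial-like cells came from library 6, and values of that class are given with that limit. Because 1 UMI is counted at the 3′ end of each transcript, CPM does not scale with transcript length.

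Agonists that constrict an artery, such as endothelin 1, vasopressin and noradrenaline, act largely through receptors coupled to Gq and G12/13, which raise calcium and the tone of VSMCs. Dilators such as prostacyclin act through Gs and cyclic AMP, and nitric oxide through cyclic GMP. RGS proteins speed up the hydrolysis of GTP by the α subunits of Gq and Gi and so shorten the signal of a receptor after its ligand has bound.

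The 10 genes are protein coding in GENCODE M21 on mm10, and the 4 RGS genes lie on chromosome 1, with 11 of the 23 RGS family genes listed for this work. Rgs2 is at chr1:143999338-144004161 on the minus strand and Rgs16 at chr1:153740349-153745468 on the plus strand. Rgs5 at chr1:169655501-169695813 on the plus strand and Rgs4 at chr1:169741477-169747642 on the minus strand face each other tail to tail, with 45663 bases and 0 annotated genes between them. Ednra is at chr8:77663031-77724464 and Ednrb at chr14:103814625-103844402, both on the minus strand. Ptgir at chr7:16906490-16910905, Olfr558 at chr7:102702215-102712064, Avpr1a at chr10:122448499-122453452 and P2rx1 at chr11:72999103-73015200 are on the plus strand. Genes on the opposite strand overlap Rgs16 (Gm28513), Avpr1a (Gm48877), Ednra (4933431K23Rik) and Olfr558 (Gm45688), and only Gm28513 and Gm48877 are features of the matrix. Whether counting used the strand is not given in the sources used here, so UMIs of Rgs16 and Avpr1a could not be told apart from those of these partners.

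Promoters are printed for Rgs4, P2rx1 and Olfr558, which were highest in VSMC-like cells, for Rgs5, which chose the subcluster described further on, and for Rgs16, which was highest in endothelial-like cells. They come from the RefSeq promoter table of GRCm38.p6, the assembly of mm10, where all 10 members had an entry. Each runs 5′ to 3′ on the strand of its gene and ends before the first annotated base, with each GATAA motif in capitals (TTATC where it lies on the other strand). Windows shorter than 250 bases are those whose RefSeq start lies inside the GENCODE gene. The windows are chr1:169747643-169747892 on the minus strand for Rgs4, chr1:169655251-169655500 on the plus strand for Rgs5, chr1:153740103-153740348 on the plus strand for Rgs16, chr11:72998895-72999102 on the plus strand for P2rx1 and chr7:102702073-102702214 on the plus strand for Olfr558.
Rgs4: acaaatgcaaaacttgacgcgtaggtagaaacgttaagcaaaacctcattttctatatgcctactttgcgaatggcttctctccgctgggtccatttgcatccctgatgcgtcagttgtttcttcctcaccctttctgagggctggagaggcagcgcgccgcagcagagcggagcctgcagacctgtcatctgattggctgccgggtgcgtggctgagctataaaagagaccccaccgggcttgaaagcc
Rgs5: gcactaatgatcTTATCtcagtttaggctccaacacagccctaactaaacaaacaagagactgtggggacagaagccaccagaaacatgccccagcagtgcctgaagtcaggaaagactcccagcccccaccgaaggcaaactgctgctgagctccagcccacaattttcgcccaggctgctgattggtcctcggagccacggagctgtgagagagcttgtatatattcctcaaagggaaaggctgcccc
Rgs16: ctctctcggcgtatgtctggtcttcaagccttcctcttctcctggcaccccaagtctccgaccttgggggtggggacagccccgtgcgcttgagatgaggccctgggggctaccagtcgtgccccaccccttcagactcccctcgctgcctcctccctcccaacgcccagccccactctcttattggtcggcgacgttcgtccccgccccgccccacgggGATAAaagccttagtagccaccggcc
P2rx1: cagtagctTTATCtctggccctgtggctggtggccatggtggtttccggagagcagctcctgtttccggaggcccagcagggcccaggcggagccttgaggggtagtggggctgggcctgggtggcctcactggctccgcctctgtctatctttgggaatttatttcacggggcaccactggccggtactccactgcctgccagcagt
Olfr558: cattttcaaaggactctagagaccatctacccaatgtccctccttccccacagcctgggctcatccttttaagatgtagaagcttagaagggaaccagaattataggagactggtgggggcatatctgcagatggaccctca

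Both strands of the 250 bases before the RefSeq start were searched for GATAA, the core of GATA factor motifs, for the CArG box of serum response factor, and for TGACGTCA, the cyclic AMP response element. None of the 3 motifs contains another. GATAA was found once in Rgs5, Rgs16 and P2rx1, at 238, 30 and 242 bases before the RefSeq start, and in 0 of the other 7 members. Over 32841 mouse promoters of the same length, 22.6% held GATAA, 1.47% a CArG box and 1.55% TGACGTCA, and neither of the last 2 was found in any member. The Olfr558 window holds 0 CpG dinucleotides, against 30 in that of Rgs2. These matches are letters in a window and were not tied to binding of any factor.

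The members divided over the cell classes. For 7 of the 10 genes, 1 class had the highest level in every library. The same share over all genes was not computed, so this count is a description and no trait of the members. Between VSMC-like and fibroblast-like cells, 35.1% of genes with a mean of at least 10 CPM were higher and 36.5% lower in all 6 libraries. Rgs4, P2rx1 and Olfr558 were highest in VSMC-like cells, Ednra and Ptgir in fibroblast-like cells, Ednrb in endothelial-like cells and Rgs2 in leukocyte-like cells. Rgs16 was highest in endothelial-like cells of 5 libraries, Rgs5 was shared by endothelial-like and VSMC-like cells, and Avpr1a was hardly detected.

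**Figure D1:**
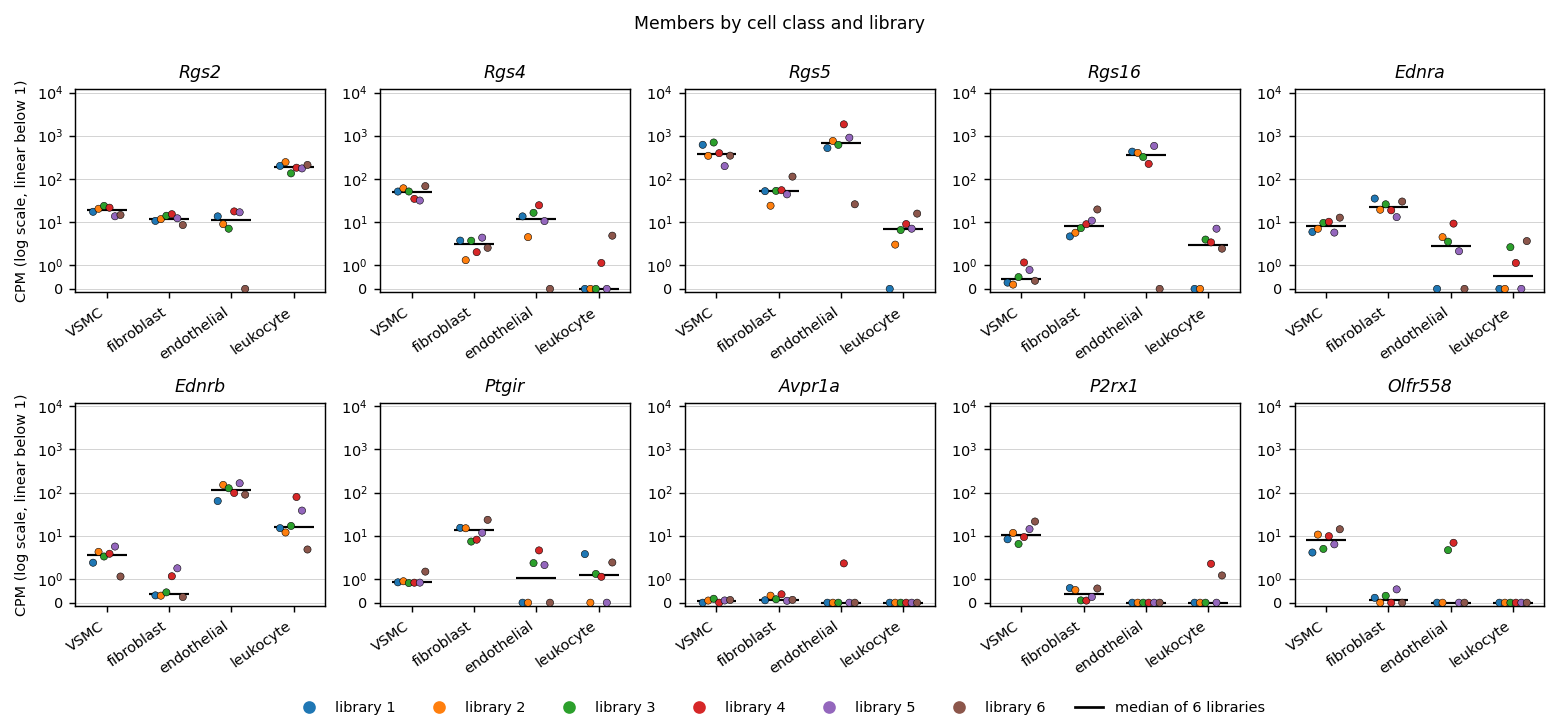
Level of each member in CPM (vertical axis, log scale and linear below 1) in VSMC-like, fibroblast-like, endothelial-like and leukocyte-like cells. Each point is 1 library and the line is the median of 6 libraries. Rgs2 stands highest in leukocyte-like cells (133 to 243 CPM), Rgs16 and Ednrb in endothelial-like cells outside library 6 for Rgs16, and P2rx1 and Olfr558 in VSMC-like cells.

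Rgs5, an inhibitor of Gq and Gi signaling used widely as a pericyte and smooth muscle marker, was the most abundant member. Its level in VSMC-like cells was 612, 340, 692, 392, 196 and 343 CPM in libraries 1 to 6. In endothelial-like cells it was 515, 751, 610, 1826, 895 and 25.6 CPM. The order of these classes differed between libraries, with endothelial-like cells higher in 3 and lower in 3, so that the medians of 680 and 367 CPM do not rank them. Fibroblast-like cells had 23.6 to 112 CPM, below VSMC-like cells in 6 of 6 libraries without overlap of the ranges, and leukocyte-like cells had 0 to 15.5 CPM.

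The endothelial-like cells with Rgs5 came from 1 of their clusters. The cluster led by Cd36, Gpihbp1 and Rbp7, genes of capillary endothelium, held 337 cells with a median of 1232 CPM. The cluster led by Ccl21a, Mmrn1, Lyve1 and Flt4, genes of lymphatic endothelium, held 230 cells, and its median was 0. Pericyte transcripts moved with part of the first cluster. The 51 cells in it with at least 3 pericyte UMIs had 5251 CPM of Rgs5 over all libraries, also held Rgs4 at 96.3 and Ednra at 32.7 CPM, and were marked as doublets (barcodes that hold more than 1 cell) in 21.6%. The 286 cells with fewer pericyte UMIs had 679 CPM of Rgs5 with 4.24 CPM of Rgs4 and 0 UMIs of Ednra, and 3.15% were marked as doublets. In the lymphatic cluster, cells with fewer than 3 pericyte UMIs had 4.62 CPM of Rgs5. Without the cells that held 3 or more, which was tried after seeing the data, the median of all endothelial-like cells was 362 CPM in place of 680 CPM.

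Rgs4, which like Rgs5 acts on Gq and Gi, was highest in VSMC-like cells at 50.4, 59.9, 50.5, 34.1, 31.2 and 67.4 CPM in libraries 1 to 6. Endothelial-like cells had a median of 11.9 CPM and fibroblast-like cells 3.07 CPM (1.29 to 4.29). The lowest VSMC-like library lay above the highest library of every other class. Of all Rgs4 UMIs, 92.3% were in VSMC-like cells, which were 41.6% of the cells. The endothelial-like median fell to 0.49 CPM without cells that held 3 or more pericyte UMIs, which was tried after seeing the data. Although Rgs4 and Rgs5 are neighbours on chromosome 1, the Cd36 cluster with few pericyte UMIs had the Rgs5 and hardly any Rgs4.

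Rgs2, a regulator with a preference for Gq that is known as a target of cyclic GMP signaling, had its highest level in leukocyte-like cells. They had 133 to 243 CPM (median 189), VSMC-like cells 13.5 to 23.4 (18.6), fibroblast-like cells 8.43 to 15.1 (11.8) and endothelial-like cells a median of 11.1 CPM. Leukocyte-like cells were 2.19% of all cells and held 19.0% of Rgs2 UMIs. Within them, the cluster led by Camp, Ngp and Cd3e had a median of 259 CPM, the cluster led by C1qb, C1qa and Lyz2 had a median of 171 CPM, and the cluster led by S100a9, Clec4e and Il1b, with 35 of its 38 cells in library 6, had 161 CPM in that library. VSMC-like cells were above fibroblast-like cells in 6 of 6 libraries, although the ranges overlap. In cells with a low share of transcripts induced by the stress of dissociation (below the median of their class and library), the median log2 ratio was 0.56 with 5 of 6 libraries higher. Dissociation transcripts summed to 13504 to 25422 CPM (median 16963) in VSMC-like and 19511 to 31617 CPM (24299) in fibroblast-like cells, with 12 of 21 such genes lower and 1 higher in VSMC-like cells in all 6 libraries, and their part in the Rgs2 difference was not tested.

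Rgs16, a Gi and Gq regulator that is induced in activated endothelium and lymphocytes, was nearly absent from VSMC-like cells. Endothelial-like cells had 425, 398, 319, 221, 577 and 0 CPM in libraries 1 to 6. The 10 cells of library 6 held 0 UMIs, and without them the lowest endothelial-like library lay at 221 CPM. Fibroblast-like cells had 4.59 to 19.3 CPM and VSMC-like cells 0.18 to 1.14 CPM, the latter from 47 UMIs. Rgs16 did not follow Rgs5 within the endothelium. With fewer than 3 pericyte UMIs per cell, it lay at 320 CPM in the capillary and at 340 CPM in the lymphatic cluster. Among fibroblast-like cells, the cluster led by Coch, Spp1, Chad and Wif1 had a median of 34.7 CPM and the other clusters at most 6.46 CPM.

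The endothelin receptors lay in different classes. Ednra encodes the A receptor, the constrictor receptor of smooth muscle, and its level was higher in fibroblast-like cells at 12.9 to 34.7 CPM (median 22.3) than in VSMC-like cells at 5.63 to 12.5 CPM (8.17). The ranges do not overlap, and fibroblast-like cells held 75.2% of the Ednra UMIs. Its level differed between fibroblast clusters, from 8.21 CPM in the Coch and Spp1 cluster to 36.9 CPM in the cluster led by Hhip, F3 and Pex5l. Ednrb encodes the B receptor, which releases nitric oxide from endothelium and clears endothelin. Endothelial-like cells had 63.5 to 164 CPM of Ednrb (median 112), leukocyte-like cells 4.77 to 78.9 (15.9), VSMC-like cells 1.13 to 5.59 (3.54) and fibroblast-like cells 0.24 to 1.75 (0.37). Each of these 4 classes exceeded the next in 6 of 6 libraries, although neighbouring ranges overlap. Among leukocyte-like clusters, the median was 18.4 CPM in the C1qb cluster and 0 in the other clusters. In endothelium with fewer than 3 pericyte UMIs per cell, Ednrb was present in the capillary cluster (139 CPM) and in the lymphatic cluster (79.3 CPM).

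Ptgir, the Gs-coupled receptor by which prostacyclin relaxes smooth muscle and restrains platelets, was a fibroblast transcript here. Fibroblast-like cells had 15.2, 14.9, 7.29, 8.05, 11.7 and 23.3 CPM in libraries 1 to 6, and VSMC-like cells 0.82 to 1.46 CPM. Of all Ptgir UMIs, 92.4% were in fibroblast-like cells. The Coch and Spp1 cluster, with the highest Rgs16 among fibroblast clusters, had a Ptgir median of 1.44 CPM, while the other 5 fibroblast clusters had 11.5 to 17.2 CPM. Avpr1a, the Gq-coupled vasopressin receptor of vascular muscle, gave 28 UMIs in all cells, of which 6 were in VSMC-like, 19 in fibroblast-like, 3 in endothelial-like and 0 in leukocyte-like cells. At this depth no level of Avpr1a could be compared between classes.

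P2rx1, the ion channel through which ATP released from sympathetic nerves contracts arteries, was confined almost wholly to VSMC-like cells, which held 96.9% of its UMIs. Its level there was 8.25, 11.6, 6.40, 9.27, 14.2 and 21.3 CPM, against at most 0.61 CPM in fibroblast-like cells. The ratio over all libraries was 39.1, with a 95% counting interval of 26.7 to 59.7. Olfr558, a receptor of short-chain fatty acids that belongs to the odorant receptor family, held 95.7% of its UMIs in VSMC-like cells, at 4.06, 10.6, 4.92, 9.72, 6.29 and 14.1 CPM. Fibroblast-like cells gave 15 UMIs, leukocyte-like cells 0 and the 567 endothelial-like cells 13. Of the latter, 12 lay in the 51 cells of the capillary cluster with 3 or more pericyte UMIs (23.1 CPM) and 1 in its 286 other cells (0.71 CPM). The ratio of VSMC-like over fibroblast-like cells was 46.6 (28.0 to 83.7). Counting intervals cover counting error alone.

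The share of cells with a UMI was set beside its value in a class that should lack the gene. In VSMC-like cells (median 7205 UMIs per cell), 25.5% had a Rgs5 UMI (95% exact binomial interval 24.7 to 26.3%) and 23.0% a Rgs4 UMI (22.2 to 23.9%). Leukocyte-like cells (median 5162 UMIs), which served as the level of free RNA for smooth muscle genes, had 2.74% and 0.55%. After each cell was thinned to 3000 UMIs, the VSMC-like shares were 18.8% and 11.1% and the leukocyte-like shares 1.34% and 0.22%. Thinning left out 563 VSMC-like and 100 leukocyte-like cells that were shallower. A Rgs16 UMI was found in 37.2% of endothelial-like cells (33.4% thinned) and in 0.33% of VSMC-like cells, and a Ednrb UMI in 26.8% of endothelial-like cells (21.6% thinned). Leukocyte-like cells had a Rgs2 UMI in 48.7% (38.8% thinned), against 9.16% of VSMC-like cells (4.39% thinned).

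Ratios taken within each library set VSMC-like against fibroblast-like cells. Of the 10 members, 6 were higher and 3 lower in VSMC-like cells in all 6 libraries. Over all 8163 genes with a mean of at least 10 CPM, 35.1% were higher and 36.5% lower in all 6 libraries, so 1 direction in every library is common in this comparison. Only Rgs2, Rgs4, Rgs5 and Ednra passed that filter. The median log2 ratio was 3.94 for Rgs4 (2.85 to 5.50), 3.21 for Rgs5 (1.61 to 3.85), 0.73 for Rgs2 (0.15 to 0.79) and -1.33 for Ednra (-2.56 to -0.88), against -0.01 over all genes. The libraries of Rgs4 and Rgs5 thus lay several log2 units above the median gene, while those of Rgs2 lay less than 1 unit above it. Below the filter, P2rx1 had a median of 5.35, Ednrb 2.40, Ptgir -3.85 and Rgs16 -3.86, and Avpr1a was higher in 2 and lower in 4 libraries. Olfr558 was higher in all 6 libraries, with 0 UMIs in fibroblast-like cells of 3, so that its log2 ratio depends on the prior count of 0.5 UMI and is not given.

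**Figure D2:**
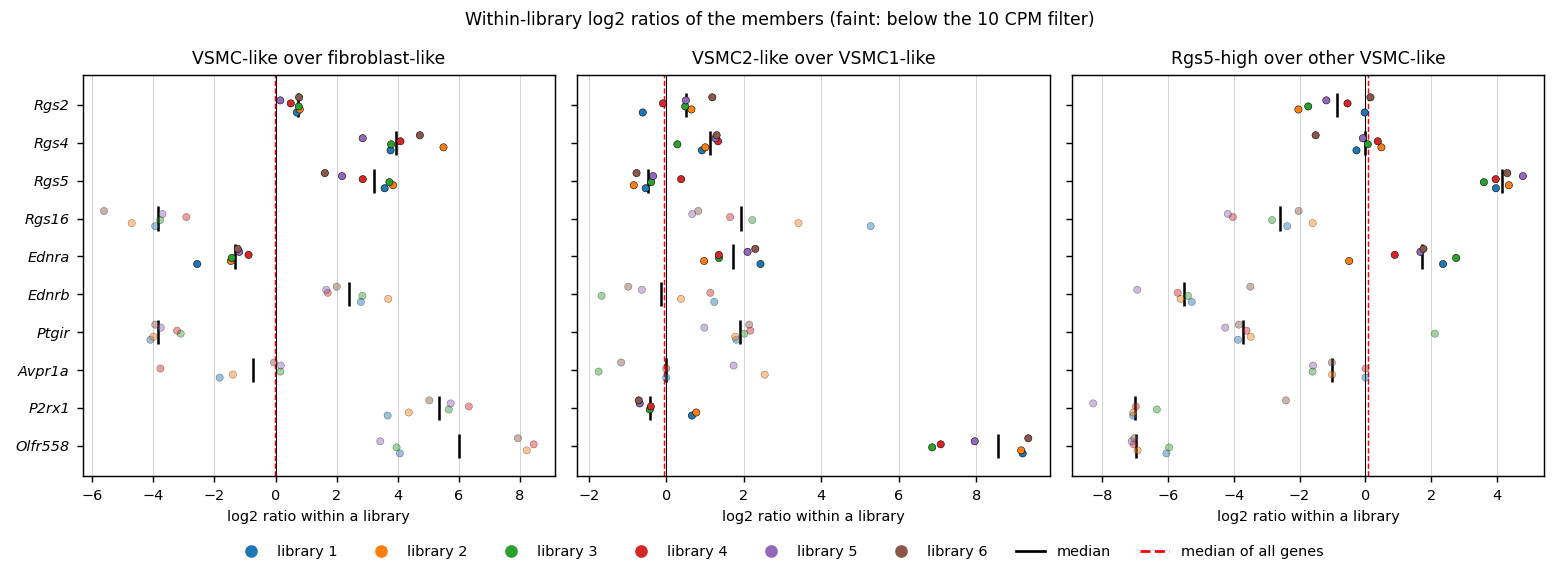
Log2 ratio of each member within a library (horizontal axis) for the comparisons named above each panel. Points are libraries, black bars medians, the dashed line the median of all genes, and faint points mark members below the filter of 10 CPM. Rgs4 and Rgs5 lie right of 0 in all 6 libraries in the first panel, Rgs4, Ednra and Olfr558 in the second, and the Rgs5 values of the third reflect how that subcluster was chosen.

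Genes of the same pathways divided between the classes as well. Of the other RGS genes, 5 of 19 passed the filter, with 2 higher and 3 lower in VSMC-like cells in all 6 libraries (median log2 ratio of the list -1.11). Rgs7bp, which anchors R7 RGS proteins at the membrane, had 43.1 against 5.71 CPM and Rgs3 49.4 against 29.0 CPM, while Rgs10 had 4.63 against 20.6 CPM. Of 7 constrictor receptors that passed, 3 were higher and 4 lower (median -0.57). The serotonin receptor Htr1b (26.2 against 0.43 CPM), the neuropeptide Y receptor Npy1r (174 against 12.4) and the thromboxane receptor Tbxa2r (52.2 against 12.6) were VSMC-like transcripts. Ptgfr (0.34 against 28.7) and Lpar1 (3.77 against 149), receptors of prostaglandin F and lysophosphatidic acid, were fibroblast-like transcripts like Ednra. Of 7 dilator receptors or their partners that passed, 2 were higher and 4 lower (median -0.44). Ramp1 was higher in VSMC-like cells (460 against 13.2 CPM), while Ramp2 (3.80 against 233) and Ptger4 (1.78 against 36.2) were lower, as was Ptgir.

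Further down the pathways, of 12 effectors of cyclic nucleotides, 10 were higher and 0 lower (median 1.52), with the adenylyl cyclase Adcy5 at 162 against 11.7 and the guanylyl cyclase subunit Gucy1b1 at 311 against 51.7 CPM. Of 9 G protein α subunits, 5 were higher and 3 lower (median 0.16), with Gnai1 at 179 against 58.7 and Gnaq at 33.9 against 45.8 CPM. The prostacyclin synthase gene Ptgis was higher in VSMC-like cells (1158 against 368 CPM), the class in which the receptor gene Ptgir was low. Edn1, which encodes the ligand of both endothelin receptors, had 15.9 against 30.8 CPM.

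Rgs5 was concentrated in few VSMC-like cells. Of the 10380 cells, 74.5% had 0 Rgs5 UMIs, 7.48% had 10 or more, and the highest cell had 329. In each library, the 5% of VSMC-like cells with most Rgs5 held 63.6 to 79.6% of its UMIs. The 776 cells with 10 or more Rgs5 UMIs were spread over subtypes that were clustered with the members and the listed genes left out of the variable genes: 196 were in a small subcluster with the highest Rgs5, here called Rgs5-high, 506 in VSMC1-like and 74 in VSMC2-like cells. VSMC1 and VSMC2 are the study's names for smooth muscle cells whose profiles map to the ascending aorta and to the root, and the subclusters were named here from Tes and Ptprz1 and from Enpep and Notch3. They held 8342 and 1770 cells, and Rgs5-high held 251 (77, 18, 45, 54, 26 and 31 in libraries 1 to 6). Rgs5-high was 2.42% of VSMC-like cells with 29.8% of their Rgs5 UMIs.

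**Figure D3:**
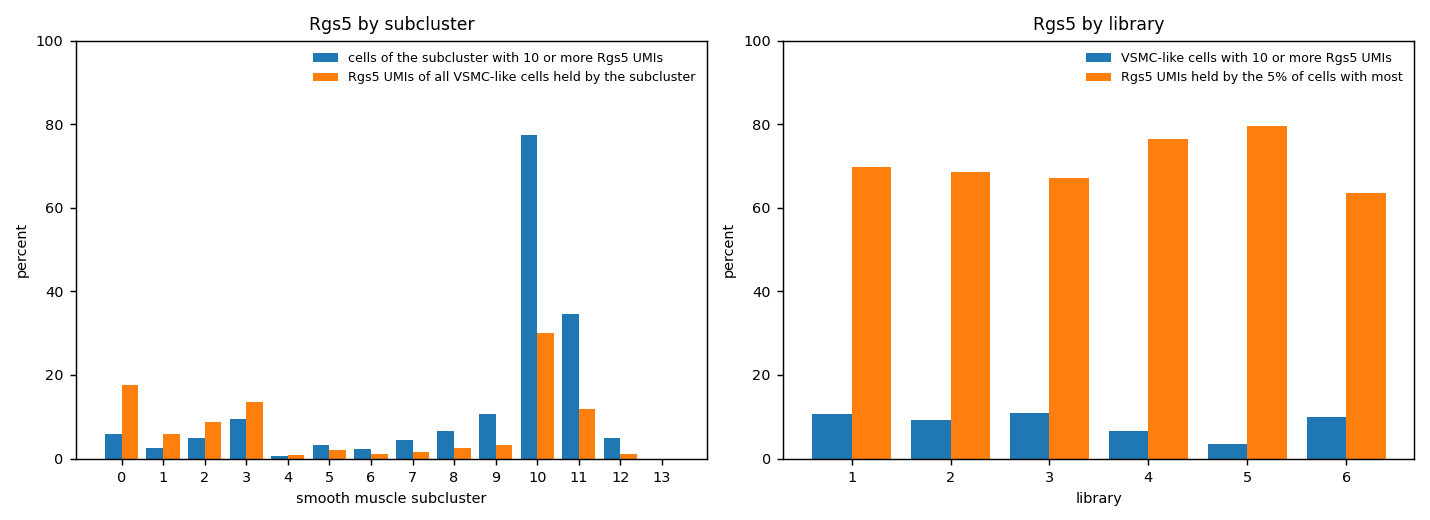
Left, for each smooth muscle subcluster of the finer division, the percent of its cells with 10 or more Rgs5 UMIs and the percent of all VSMC-like Rgs5 UMIs that it held. Right, for each library, the percent of VSMC-like cells with 10 or more Rgs5 UMIs and the percent of Rgs5 UMIs in the 5% of cells with most. Subcluster 10, led by the same genes as Rgs5-high, reached 77.4% and subcluster 11 reached 34.7%, while every library held over 60% of its Rgs5 in 5% of the cells.

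Cells with much Rgs5 were of more than 1 kind. Those of Rgs5-high were led by Prrx2, Sfrp2, Adamtsl1, Dlx6 and Negr1. The 580 cells with 10 or more Rgs5 UMIs outside Rgs5-high were led by Ndufa4l2, Fst, Prrx2 and Higd1b. Of these cells, 506 were VSMC1-like and 74 VSMC2-like, and the subtypes were not examined apart. Over all cells of each subtype, Higd1b gave 5 UMIs in VSMC1-like and 208 in VSMC2-like cells, and Ndufa4l2 86 and 779. The leading genes and the pericyte sum of the 580 cells were therefore not shown to hold for the VSMC1-like majority. Of the 50 genes highest in Rgs5-high and the 50 highest in the 580 cells, 10 were shared, among them Foxf1, Prrx2, Sfrp2, Lamc3 and Vcan. Rgs5, by which both sets were chosen, is also among these 10. The 9 pericyte markers summed to 348 to 471 CPM in Rgs5-high (median 416), to 465 to 804 CPM (490) in the 580 cells and to 259 to 370 CPM (322) in the other 9549 VSMC-like cells. Of 6 pericyte markers that passed the filter, 3 were higher and 0 lower in Rgs5-high than in the other VSMC-like cells in all 6 libraries (median log2 ratio 0.29). Over all genes, 9.73% were higher and 5.96% lower. The pericyte markers did not move together. Summed over libraries, Kcnj8, Abcc9, Cspg4 and Pdgfrb were higher in Rgs5-high cells. Cox4i2, Notch3 (13.7 against 25.7 CPM) and Ndufa4l2 (1.06 against 10.8) were lower. Higd1b and Vtn gave 0 UMIs there, against 2.65 and 0.62 CPM in the other VSMC-like cells. In subcluster 11, which held 242 cells led by Cfd, Car3, Ccl21a and Fst, 12.8% were marked as doublets, and the part of doublets in its Rgs5 level was not tested.

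Members other than Rgs5 varied with the number of Rgs5 UMIs in a VSMC-like cell. From cells with 0 to cells with 10 or more Rgs5 UMIs, the median of Ednra was 6.08 and 22.4 CPM, that of Rgs4 44.0 and 73.2 CPM, and that of P2rx1 11.5 and 5.71 CPM. The median depth of these cells was 7035 and 7879 UMIs. The Ednra ranges over libraries did not overlap (3.96 to 9.59 and 11.7 to 35.0 CPM), whereas those of Rgs4 (28.0 to 65.3 and 52.9 to 87.5) and P2rx1 (5.84 to 22.1 and 2.59 to 17.5) did.

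VSMC2-like and VSMC1-like cells were compared within each library. Of the 10 members, 5 were higher in VSMC2-like cells in all 6 libraries, namely Olfr558, Ednra, Rgs4 and, at few UMIs, Ptgir and Rgs16, and 0 were lower. Over the 7722 genes that passed the filter of 10 CPM, 13.5% were higher and 20.9% lower in all 6 libraries. With TMM factors, which scale libraries to a common bulk of genes, these shares were 16.9% and 16.3%. The 6 members that passed the filter were Rgs2, Rgs4, Rgs5, Ednra, P2rx1 and Olfr558, of which 3 were higher and 0 lower in all 6 libraries. With no filter, as in the count of 10 members, 5.32% of all 31055 features were higher and 7.04% lower. The median log2 ratio over all genes was -0.05.

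**Figure D4:**
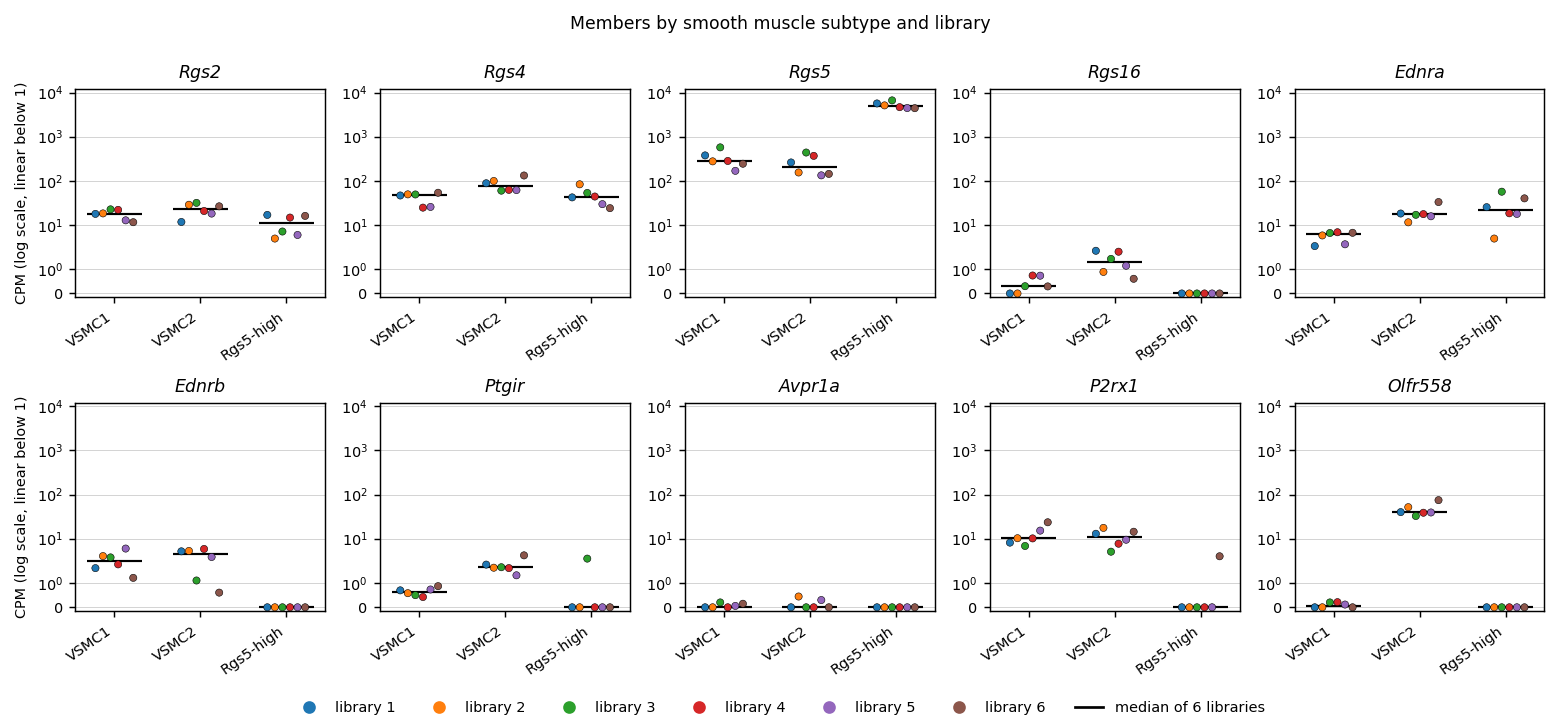
Level of each member in CPM (vertical axis, log scale and linear below 1) in VSMC1-like, VSMC2-like and Rgs5-high cells. Each point is 1 library and the line is the median of 6 libraries. Olfr558 lies at 32.7 to 74.8 CPM in VSMC2-like cells and near 0 elsewhere, and P2rx1 and Ednrb fall to 0 in Rgs5-high cells apart from 1 UMI of P2rx1 in library 6.

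Olfr558 was nearly specific to VSMC2-like cells. Its level there was 40.1, 51.9, 32.7, 38.8, 39.3 and 74.8 CPM in libraries 1 to 6, and 0, 0, 0.20, 0.21, 0.11 and 0 CPM in VSMC1-like cells. Of 628 UMIs in VSMC-like cells, 622 were in VSMC2-like and 6 in VSMC1-like cells, a ratio of 494 with a 95% counting interval of 226 to 1351. At least 1 Olfr558 UMI was found in 17.0% of VSMC2-like cells (9.84% thinned), in 0.07% of VSMC1-like cells and in 0 of 548 leukocyte-like cells. The median log2 ratio, 8.55, depends on the prior count because 3 libraries had 0 UMIs in VSMC1-like cells.

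Within VSMC2-like cells, Olfr558 marked 1 subcluster. Subcluster 5 of the finer division held 560 cells, all VSMC2-like, and 86.9% of the Olfr558 UMIs of VSMC-like cells. Its other leading genes were Pgam2, Rasd1, Pln, Acta1, Thbs1, Corin, Kcna5 and Nrip2. Pln restrains calcium uptake into the sarcoplasmic reticulum, Acta1 is the skeletal α actin and Kcna5 a voltage-gated potassium channel. Olfr558 reached 74.2 to 158 CPM (median 130) in subcluster 5, with a UMI in 46.6% of its cells, and 8.67 CPM in the other 1210 VSMC2-like cells. Only 0.18% of subcluster 5 was marked as doublets.

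The same subcluster carried most of the Rgs4 difference. Rgs4 was at 87.9, 98.9, 59.7, 62.2, 61.5 and 132 CPM in VSMC2-like and at 46.4, 49.2, 48.9, 24.6, 25.5 and 53.5 CPM in VSMC1-like cells, with no overlap and a median log2 ratio of 1.14 (0.29 to 1.34). In subcluster 5 the median was 158 CPM (93.1 to 270), in the VSMC2-like cells outside it 39.9 CPM (35.2 to 61.3) and in VSMC1-like cells 47.7 CPM. With subcluster 5 left out, a choice made after seeing the data, the log2 ratio was 0.22 and 4 of 6 libraries were higher, so the call no longer held. Rgs2 likewise had 43.8 CPM in subcluster 5, 9.83 CPM in the other VSMC2-like cells and 18.0 CPM in VSMC1-like cells. High Rgs2 was not particular to subcluster 5, because subcluster 1, with 4 Olfr558 UMIs, had a median of 38.8 CPM (24.6 to 45.2). For Rgs2, VSMC2-like cells exceeded VSMC1-like cells in 4 of 6 libraries (median 0.50) or, without subcluster 5, in 1 of 6 (-0.71). VSMC2-like cells with a Olfr558 UMI (301 cells) had 206 CPM of Rgs4, 53.2 CPM of Rgs2 and 33.9 CPM of Ednra, against 51.3, 13.9 and 13.7 CPM in the 1469 cells without, at a median depth of 8013 and 6811 UMIs.

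Ednra was higher in VSMC2-like cells beyond subcluster 5. Its level was 18.1, 11.4, 16.9, 17.5, 15.7 and 32.9 CPM in VSMC2-like cells against 3.30, 5.76, 6.54, 6.81, 3.63 and 6.61 CPM in VSMC1-like cells. The median log2 ratio was 1.73 (0.98 to 2.43) and the ranges do not overlap. In subcluster 5 the median was 24.5 CPM and in the other VSMC2-like cells 9.86 CPM, whose lowest library (7.89 CPM) was above the highest VSMC1-like library. The finer subclusters differed. Subcluster 4, with Enpep among its leading genes, had a median of 6.39 CPM (4.34 to 9.58), which overlaps the VSMC1-like range. Subclusters 8 and 11 had 9.09 and 30.2 CPM, with 43.7% and 12.8% of their cells marked as doublets. Subclusters 5, 8 and 11 were not left out together. Rgs16 (22 against 25 UMIs in VSMC2-like and VSMC1-like cells) and Ptgir (32 against 42 UMIs) had levels of at most 2.58 and 4.19 CPM in VSMC2-like cells, and neither direction held under every alternative. For Rgs16 the median log2 ratio was -1.35 with a low dissociation share, -0.84 with log-normalized clusters and 0.14 without subcluster 8 (3 of 6 libraries higher). For Ptgir it was 0.96 with a low dissociation share (4 of 6 libraries higher) and 1.21 without subcluster 8 (5 of 6).

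Rgs5 was lower in the VSMC2-like subtype in 5 of 6 libraries (median log2 ratio -0.46), at 133 to 437 CPM against 168 to 572 CPM. Library 4 was the exception, and without it Rgs5 was lower in all 5 libraries. P2rx1 (median -0.41, higher in 2 of 6) and Ednrb (-0.12, higher in 3 of 6) had no common direction. Subclusters differed more than these subtypes. P2rx1 reached a median of 21.5 CPM in subcluster 9, led by Igfbp2 and Akap5, and 17.9 CPM in subcluster 2, led by Gm26699 and Myo9b. Ednrb reached a median of 13.6 CPM in subcluster 3, led by Des, Psd and Tnnt2, and medians of at most 3.95 CPM in the others. Subcluster 13, with 17 cells, had a median of 0 but 43.4 CPM over all libraries, from 6 UMIs. The highest libraries of subclusters 8 and 11 had 20.9 and 35.6 CPM.

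**Figure D5:**
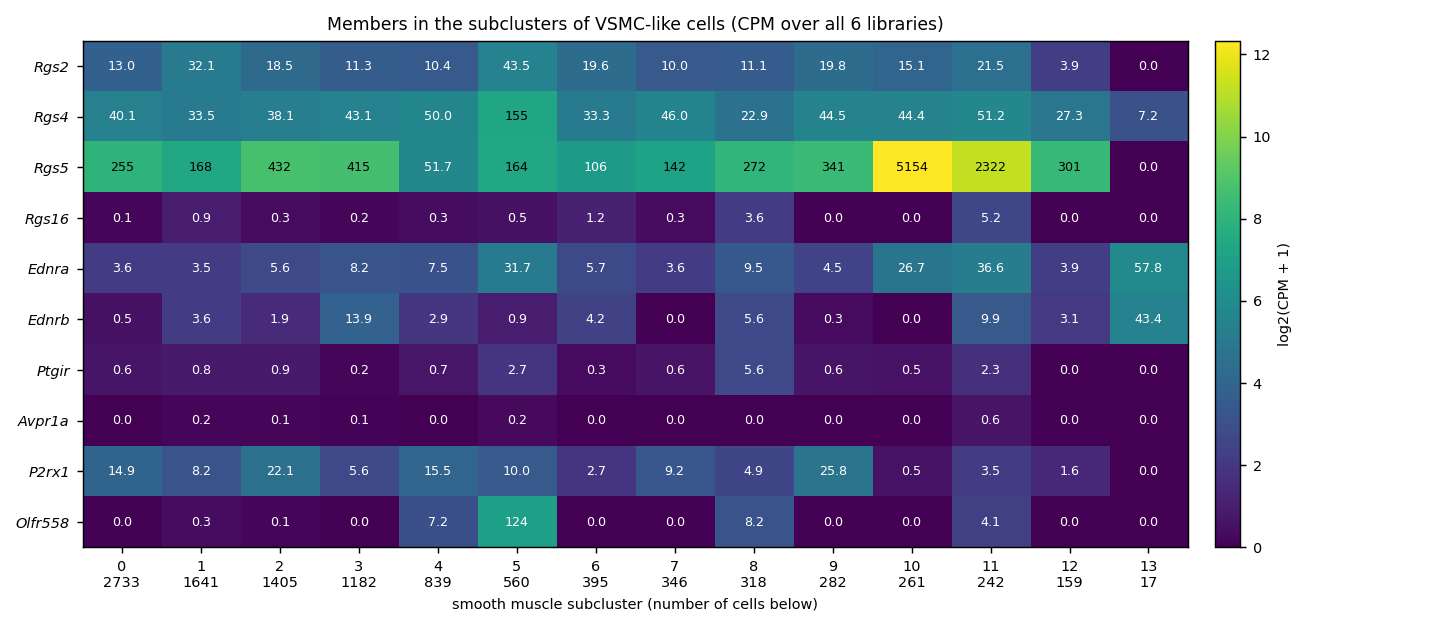
Level of each member in the 14 smooth muscle subclusters (columns, with the number of cells), as CPM over the summed UMIs of 6 libraries. Color gives log2(CPM + 1). Olfr558 and Rgs4 are highest in subcluster 5 (124 and 155 CPM), Rgs5 in subclusters 10 and 11, Ednra in subclusters 5, 10, 11 and 13, and P2rx1 in subclusters 2 and 9.

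Transcripts of the stress of dissociation and fibroblast markers moved with the VSMC2-like cells. Of 21 dissociation genes that passed the filter, 19 were higher in VSMC2-like cells in all 6 libraries (median log2 ratio 0.92), and the list summed to 24786 CPM in VSMC2-like, 15080 in VSMC1-like and 32448 in subcluster 5. Of 8 fibroblast markers, 7 were higher (median 2.48), and the list summed to 2775 CPM in VSMC2-like, 1098 in VSMC1-like, 395 in subcluster 5 and 9904 in subcluster 8, of which 43.7% were marked as doublets. The share marked as doublets was 9.27% against 1.17% in the VSMC1-like subtype, the pericyte markers summed to 487 against 307 CPM, and the cardiomyocyte markers to 317 against 68.1 CPM. The pericyte list holds Notch3, which helped to name the VSMC2-like cells (90.9 against 12.1 CPM over all libraries). The cardiomyocyte list holds Pln, a leading gene of subcluster 5 (638 CPM). These 2 sums are therefore not a measure of other cell types alone. The part of the listed transcripts and of doublets in the members' differences was not tested beyond the values that follow. Among cells below the median dissociation share of their library, Olfr558 was still higher in the VSMC2-like subtype in 6 of 6 libraries (log2 ratio 7.02), Ednra was higher in 5 of 6 (1.30) and Rgs4 in 4 of 6 (0.52), while Rgs16 was at -1.35. Without subcluster 8, Olfr558, Ednra and Rgs4 kept their direction in 6 of 6 libraries, and Rgs16 (0.14) and Ptgir (1.21) did not.

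Several members followed the share of dissociation transcripts when the cells of a class and library were divided into tertiles of that share. From the lowest to the highest tertile, the median of Rgs2 was 9.07 and 29.9 CPM in VSMC-like cells and 5.20 and 17.0 CPM in fibroblast-like cells, higher in 6 of 6 libraries in both. Olfr558 was at 0.60 and 16.5 CPM and Ednra at 5.82 and 9.77 CPM in VSMC-like cells, both higher in 6 of 6 libraries. In fibroblast-like cells Ednra went the other way, from 27.9 to 21.1 CPM, lower in 6 of 6 libraries, and Rgs16 from 1.97 to 14.1 CPM, higher in 6 of 6. Rgs4 in VSMC-like cells (46.8 and 49.3 CPM) had overlapping ranges, and Rgs5 (499 and 312 CPM) was higher in the highest tertile in 1 of 6 libraries. The share is itself a cell property that differs between subtypes, and its part in these levels was not tested.

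Of 59 pathway genes that passed the filter, 6 (10.2%) had a higher level in the VSMC2-like subtype in every library and 20 (33.9%) a lower one, against 13.5% and 20.9% of all genes. With TMM factors, 8 were higher and 18 lower, against 16.9% and 16.3% of all genes. The median log2 ratio was -0.47 for 6 constrictor receptors, -0.39 for 4 dilator receptors and -0.04 for 12 effectors of cyclic nucleotides, against -0.05 over all genes. Among dilator receptors, Npr1, the receptor of atrial natriuretic peptide, had 13.1 against 107 CPM and Ramp1 297 against 491 CPM. Among constrictor receptors, S1pr3 had 16.5 against 0.33 CPM, while Htr1b had 9.98 against 30.5 CPM and Npy1r 133 against 184 CPM. The guanylyl cyclase subunit Gucy1a1 had 448 against 258 CPM. Of the other RGS genes, Rgs7bp was higher (57.1 against 39.4 CPM) and Rgs3 lower (33.6 against 50.8 CPM). Of the P2X channels, P2rx5 was lower (10.4 against 20.5 CPM).

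Rgs5-high cells were set against the other 10129 VSMC-like cells. Rgs5 chose this subcluster, so its 4432 to 6653 CPM against 162 to 551 CPM are a description. The members that passed the filter were Rgs2, Rgs4, Rgs5 and Ednra. Of these 4, 1, Rgs5 itself, was higher and 0 were lower in all 6 libraries, against 9.73% higher and 5.96% lower of 7920 genes. Below the filter, Rgs16, Ednrb, P2rx1 and Olfr558 were lower in all 6 libraries. They are rare genes with 0 or 1 UMI among the 1894455 UMIs of Rgs5-high cells. Where a library had 0 UMIs in Rgs5-high cells, any UMI in the other cells gave a lower ratio. These 4 directions are therefore not set beside the shares of all genes.

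P2rx1 gave 1 UMI in Rgs5-high cells where 22.4 would be counted at the level of the other VSMC-like cells, a ratio of 0.04 with a 95% counting interval of 0.00 to 0.25. Olfr558 gave 0 UMIs against 14.8, at least 4.94-fold lower with 3 counts as the limit of a 0 over the group. Of the 628 Olfr558 UMIs of the other cells, 622 were in VSMC2-like cells. VSMC1-like cells had 0.09 CPM over all libraries, and subclusters 3, 6, 7, 9 and 12 also gave 0 UMIs. Ednrb gave 0 against 7.15, at least 2.38-fold lower by the same limit. Of its 303 UMIs in the other cells, 155 were in subcluster 3, and subcluster 7 (346 cells) also gave 0. Neither absence is thus particular to Rgs5-high cells. Rgs16 gave 0 UMIs against 1.11, Avpr1a 0 against 0.14 and Ptgir 1 against 1.75, too few for a difference to be detectable. None of the 251 cells had a Olfr558 or Ednrb UMI, and after thinning 0 of the cells kept had a P2rx1 UMI.

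Ednra was at 25.2, 4.89, 56.5, 18.3, 17.7 and 39.9 CPM in Rgs5-high cells and at 4.87 to 11.7 CPM in the other VSMC-like cells. It was higher in 5 of 6 libraries (median log2 ratio 1.71), and library 2, with 18 cells and 1 Ednra UMI, was the exception (-0.50). Without library 2 it was higher in all 5 libraries, so that 2 members were. Over all libraries the ratio was 3.79 (2.81 to 5.03). Rgs4 did not differ in direction (higher in 3 of 6, median -0.01), and Rgs2 was lower in 5 of 6 (-0.87) from 24 UMIs. Rgs5-high and VSMC2-like cells thus both held more Ednra than VSMC1-like cells. Olfr558 was found in VSMC2-like cells, hardly in VSMC1-like cells and not in Rgs5-high cells.

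Of 58 pathway genes that passed the filter, 11 (19.0%) were higher and 12 (20.7%) lower in Rgs5-high cells in all 6 libraries, against 9.73% and 5.96% of all 7920 genes. The median log2 ratio was 0.74 for 4 other RGS genes, 0.53 for 4 dilator receptors and -0.09 for 12 effectors of cyclic nucleotides, against 0.08 over all genes. Calcrl, the receptor of calcitonin gene-related peptide and adrenomedullin, had 99.0 against 16.1 CPM and Npr1 141 against 91.4 CPM. The thrombin receptor F2r had 322 against 155 CPM. Of 4 other RGS genes that passed, Rgs10 (15.3 against 4.32 CPM), Rgs19 (19.0 against 8.49) and Rgs3 (67.1 against 48.7) were higher. The phosphodiesterase gene Pde5a was higher (174 against 86.2 CPM), and the guanylyl cyclase subunits Gucy1a1 (93.7 against 301) and Gucy1b1 (153 against 316) were lower. Of the VSMC markers, 4 of 7 were lower (median log2 ratio of the list -0.42), and of 20 dissociation genes 4 were lower and 0 higher.

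The genes most like each member were found over 34 points, which are 6 cell groups in each library with at least 20 cells, from log2(CPM + 1). The points share libraries and cell groups, so the correlations are descriptions. Rgs4 was most like Ttll7 (Pearson r = 0.94), Serpini1 and Slc16a11, and Rgs5 most like Sema3f (0.91), Aplp2 and Cdh13. Olfr558 was most like Acta1 (0.92), Gucy2g and Nrip2, and P2rx1 most like Grip2 (0.87), Bves and Slc38a11. Rgs16 was most like the endothelial transcripts Palmd (0.96), Cyp4b1 and Clec1a, and Rgs2 most like the leukocyte transcripts Ms4a7 (0.94), Adgre1 and Cd3g. Ednra was most like Prrx1 (0.90), Kctd15 and Dhx58os, Ednrb most like Rasgrp3 (0.91), Smagp and Sigirr, and Ptgir most like Olfml3 (0.88), Egflam and Dio2. Avpr1a was too rare.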

How the data were processed

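Per the labels, single-cell libraries were made with 10x Genomics 3′ v3 chemistry. The authors deposited 1 matrix of raw UMI counts, made with Cell Ranger 6 on mm10 according to the submitters' processing notes (the matrix header names 4.0.0); counts are not normalized, and depth equalization is not given in the sources used here. Cells with 1000 to 5000 genes, 1500 to 25000 UMIs and under 20% mitochondrial UMIs were kept, as in the study's methods. In Seurat 5.3.0 (sctransform 0.4.2, R 4.3.3), libraries were normalized by SCTransform v2 on 3000 variable genes, integrated by RPCA over 30 components and clustered at a resolution of 0.25. A class needed 3 markers in 10% of the cells at 1.5 times the median cluster. VSMC-like cells were reclustered without the members and lists (102 of the variable genes, 7 members) at 0.05, the lowest resolution with 2 subclusters of 5%, and at 0.5 for the finer division. A further 17 cells with cardiomyocyte transcripts were left out of subtypes. UMIs were summed per group and library (CPM). Log2 ratios used a prior of 0.5 UMI, a gene was called where all 6 libraries had 1 direction, and a filter of 10 CPM applied to all genes and lists. Doublets were marked with the scrublet of scanpy 1.11.5, taking the 5% highest scores in libraries 2 and 5, where its threshold could not be used. TMM factors came from edgeR 4.0.16. The scripts were tested on simulated data.

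Named genes are all members, the 3 highest and 3 lowest called genes of each pathway list and comparison, the 3 genes most like each member and the 10 leading genes of each subcluster, from which examples are given. Leading genes of other clusters were named after their values were seen. The members and lists were chosen with earlier results of these data known. Some genes of the lists are not reported here.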

Additional observations from a re-analysis of the deposited data

Results flagged for a closer look

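Of the values of members tested over 6 libraries, 43 in all, 3 had 1 library far from the other 5 by Dixon's criterion, and chance flags about 1 in 20. Rgs5 in fibroblast-like cells was at 112 CPM in library 6, from 943 UMIs in 912 cells, and at 23.6 to 54.1 CPM in the other libraries. Ednra in VSMC2-like cells was at 32.9 CPM in library 6, from 55 UMIs in 162 cells, and at 11.4 to 18.1 CPM in the others. The log2 ratio of Ednra in VSMC-like over fibroblast-like cells was -2.56 in library 1 and -1.46 to -0.88 in the others.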

How the results depend on the processing

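No paired analysis was possible because the replicate numbers of the labels are not carried by the library suffixes. Of the members' calls recomputed under the alternatives, 123 of 126 were kept for VSMC-like over fibroblast-like cells, 67 of 80 for VSMC2-like over VSMC1-like cells and 43 of 45 for Rgs5-high cells. The last count is no measure of stability. Its calls are those of Rgs5, which chose the subcluster, and of 4 members with 0 or 1 UMI there. For these 4, a 0 is called lower wherever the other cells hold a UMI. In the first comparison, cells with a low dissociation share ended the calls of Rgs2 (0.56), Olfr558 (3.28) and Rgs16 (-3.87), each with 5 of 6 libraries in its direction. Rgs16 in VSMC2-like over VSMC1-like cells turned to -1.35 with a low dissociation share and to -0.84 with log-normalized clusters. The 5 members higher in VSMC2-like cells became 3 without doublets, without cells that share a barcode sequence, without subcluster 8 and with log-normalized clusters, and 1, Olfr558, with a low dissociation share. The 0 members lower became 1 (Rgs5) with log-normalized clusters, and 0 to 1 with 1 library left out. Without 1 library in turn, 1 to 2 members were higher in Rgs5-high cells. List genes lower in VSMC-like than fibroblast-like cells went from 23 to 42 with no filter and to 5 at 50 CPM. Those higher in VSMC2-like cells went from 6 to 10 without shared barcodes or subcluster 8 and to 19 with no filter, those lower from 20 to 31 with no filter, and those lower in Rgs5-high cells from 12 to 25. These changes have untested causes except the filter, which changes how many genes are counted. With all genes kept in the clustering, no small subcluster with high Rgs5 formed, so that alternative gave no value for Rgs5-high cells. Depth limits Avpr1a (28 UMIs), Rgs16 and Ptgir in VSMC-like cells, and every member in the 10 endothelial-like cells of library 6.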
